A study of Mus musculus with 12 samples.

Results

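Lipoprotein lipase (LPL) and 9 further genes were followed through 12 messenger RNA sequencing libraries of cultured mouse fat-tissue cells. The 9 mature LPL, inhibit it, carry lipid or take up lipoproteins, or are relatives of such genes, as Angptl2 and Lmf2 are. The 10 genes were Lpl, Angptl4, Angptl2, Lmf1, Lmf2, Sel1l, Vldlr, Lrp1, Apod and Apoe. They were chosen by name and role, with earlier results of these data known, and had to be listed in both deposited tables. Each table lists only genes with a signal above 0 in all of its 6 libraries, so each of the 10 was detected in all 12. They are 10 of 19262 genes listed in the first table, 10 of 16785 in the second and 10 of 16618 listed in both. Gpihbp1, which anchors LPL to the capillary wall in endothelial cells, lay just outside because it was listed in the first table alone. Its signal there was 0.013, 0.189 and 0.066 in TKO and 0.018, 0.017 and 0.127 in WT.

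The cells were the stromal vascular fraction (SVF) of white adipose tissue from 6-week-old C57BL/6 mice, a mixture rich in adipocyte progenitors, grown in primary culture. The TKO group lacked all 3 miR-26 genes, as miR-26a-1-/- with miR-26a-2-/- and miR-26b-/-, and its control was wild type (WT). Both were taken at confluency. The Dox group carried M2rtTA and eGFP.miR-26a, a doxycycline-inducible miR-26a transgene, and had a 4-day exposure to doxycycline at 1 mg/ml, the dose as the labels give it. Its control (CTL) carried both transgenes and had no doxycycline, so an effect of the drug itself cannot be told apart from one of induced miR-26a. Each group held 3 libraries, which the labels do not tie to separate animals or cultures, so the p-values measure only the spread between these libraries. The libraries read messenger RNA, so miR-26 itself was not measured. The study's aim was to identify targets of miR-26 in cells that become adipocytes.

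LPL splits the triglyceride of circulating lipoproteins and releases fatty acids for uptake by the tissue. It is made in adipocytes and their precursors, folds in the endoplasmic reticulum (ER) with the help of LMF1 and the SEL1L quality-control complex, and is secreted. ANGPTL4 inactivates it, and remnant particles carrying APOE are taken up by receptors of the low-density lipoprotein (LDL) receptor family, among them VLDLR and LRP1. A microRNA binds through its seed, a run of bases near its 5′ end, to matching letters in the 3′ untranslated region (UTR) of a messenger RNA and lowers that RNA's level or translation. All copies of miR-26 share 1 seed, shown in capitals in the mature forms from RefSeq (GRCm38.p6), because the matches described next are matches to it.
mmu-miR-26a-5p: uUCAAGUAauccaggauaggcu
mmu-miR-26b-5p: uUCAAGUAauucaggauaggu
The first is made from Mir26a-1 (chr9:119031811-119031832, plus strand) and Mir26a-2 (chr10:126995543-126995564, plus strand), and the second from Mir26b (chr1:74394324-74394344, plus strand). The seed spans bases 2 to 8.

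The 3′ UTR of 1 transcript per gene (GENCODE vM21, GRCm38) was searched on the transcript's own strand for TACTTGAA (8mer), TACTTGA (7mer-m8), ACTTGAA (7mer-A1) and ACTTGA (6mer). The shorter forms lie inside the longer ones, and each site was counted once, as its longest form. The transcript used was the longest of its gene, with protein-coding, basic and end-complete annotation preferred, and was not chosen by its expression. Of the 10 genes, 3 held a match of at least 7 bases: Lpl, Sel1l and Vldlr. These are the sites, with 10 bases on each side in lower case and the match in capitals.
Lpl 7mer-A1: ttcttaatagACTTGAAtttttatgac
Sel1l 8mer: ccacagaaagTACTTGAAgaaaatatct
Sel1l 7mer-A1: cccactagggACTTGAAgaaaatttga
Vldlr 7mer-m8: caagtttgagTACTTGAtcatttttat
The Lpl match lies in exon 10 of 10, at chr8:68905163-68905169 on the plus strand, and starts at base 657 of a UTR of 2428 bases. In Sel1l both lie in exon 21 of 21 on the minus strand, the 8mer at chr12:91807755-91807762 and the 7mer-A1 at chr12:91806475-91806481. The Vldlr match lies in exon 19 of 19, at chr19:27249280-27249286 on the plus strand. Sel1l and Vldlr each held 1 further 6mer. No match of 6 bases or more was found in the UTRs of Angptl4, Angptl2, Lmf1, Lmf2, Lrp1, Apod or Apoe. Among 11834 genes tested in TKO against WT that have an annotated 3′ UTR, 21.8% held a match of at least 7 bases and 5.09% held an 8mer. The 3 UTRs with matches were the longest of the 10, at 2428 bases in Lpl, 3801 in Sel1l and 5091 in Vldlr, against a median of 1199 over those genes.

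Recovered depth was 71455171 to 83461531 reads in TKO, 54978109 to 61307152 in WT, 19301969 to 25785439 in Dox and 20182665 to 24122542 in CTL. Signal is the deposited read count after the authors' scaling, which was done apart for the 2 tables, so levels are not compared between TKO or WT and Dox or CTL. Progenitor markers (12 of 12 listed) summed to 4652 to 5353 in TKO, 6106 to 6696 in WT, 5235 to 5763 in Dox and 5125 to 6016 in CTL. Pdgfra, which marks adipose progenitors, was between 517 and 1082 in all 12 libraries. Macrophage markers (14 of 14 listed) summed to 68.2, 353 and 60.9 in TKO and 59.1, 46.2 and 80.7 in WT, so TKO replicate 2 stood apart. In Dox the macrophage sums were 187, 101 and 35.5, and in CTL they were 215, 98 and 46.1, following the replicate number. Adipocyte markers (7 of 8 listed in the first table, 5 of 8 in the second) summed to 132, 136 and 30.6 in TKO, 29.2, 31.6 and 34.6 in WT, 33.6, 40.8 and 38.9 in Dox and 37.9, 38.8 and 62.5 in CTL. Among them Adipoq, which encodes adiponectin, was 16, 16.3 and 0.787 in TKO, against 1.18, 1.85 and 2.8 in WT. In bulk RNA such as this, fewer cells of a type and less RNA per cell cannot be told apart.

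To compare levels between genes, signal was divided by the length in kilobases of the same 1 transcript per gene, whose choice can alter the order. On that scale Lpl was the highest of the 10 in WT, at 315 ± 55.7 per kb (SD, n = 3), followed by Lrp1 at 189 ± 5.39, Apoe at 92.5 ± 24.9, Angptl2 at 67 ± 6.08 and Sel1l at 43.2 ± 0.698. Below these in WT were Lmf2 at 35.9 ± 2.59, Vldlr at 13.1 ± 2.9, Lmf1 at 9.76 ± 0.621, Angptl4 at 5.72 ± 1.27 and Apod at 4.97 ± 1.17 per kb. Of the neighbours in this order, Vldlr overlapped with Lmf1 and Angptl4 with Apod. WT cells thus held abundant messenger RNA for the lipase and for its large endocytic receptor, and little for the inhibitor Angptl4. In TKO, Lpl averaged 280 ± 111, Lrp1 204 ± 34.2 and Apoe 185 ± 105 per kb, which their spreads do not separate. In CTL the order was led by the same 3 genes, with Lpl at 296 ± 74.3, Lrp1 at 230 ± 14.7 and Apoe at 109 ± 38.5 per kb. Lpl and Lrp1 overlapped in CTL, where replicate 3 held Lrp1 at 246 and Lpl at 211 per kb. In Dox, Lrp1 averaged 253 ± 18.6 and Lpl 213 ± 62.1 per kb, a gap within the spread of Lpl. Angptl4 averaged 9.67 ± 3.59 in TKO, 5.72 ± 1.27 in WT, 13.8 ± 3.11 in Dox and 7.63 ± 1.15 per kb in CTL.

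**Figure D1:**
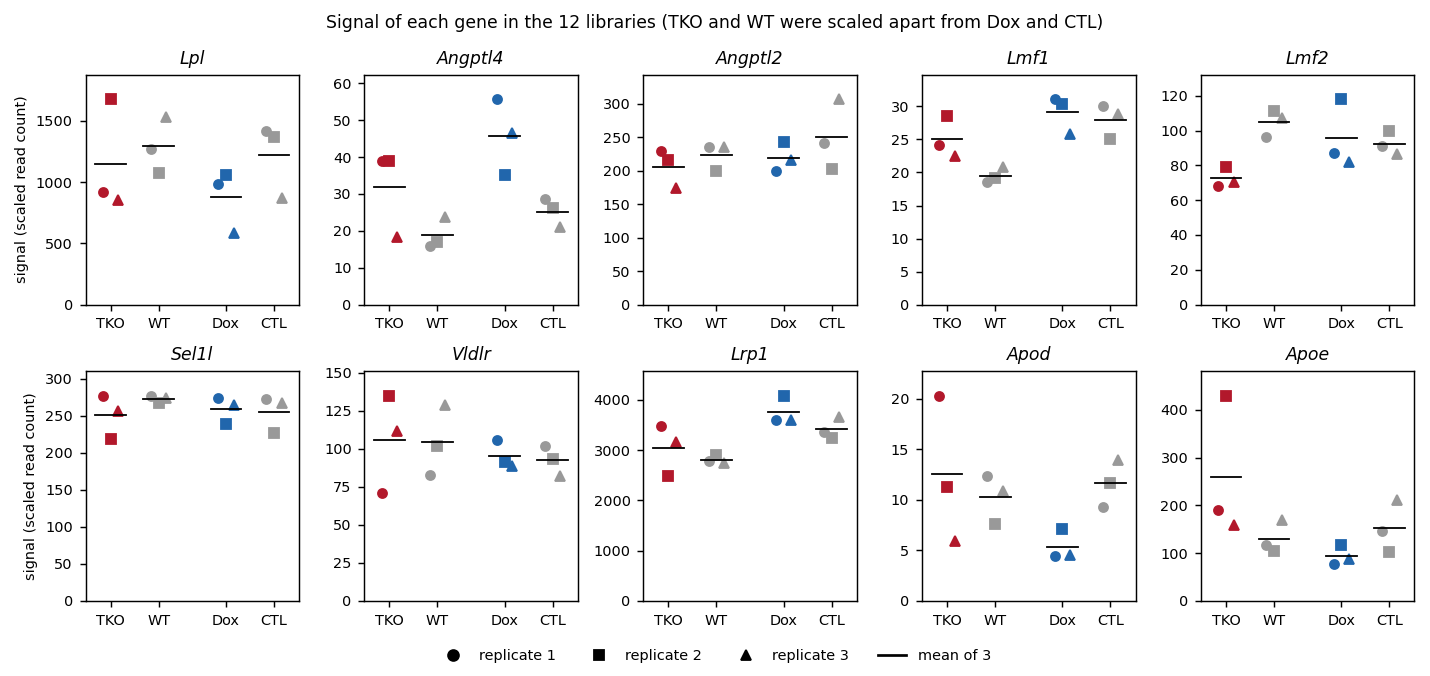
Deposited signal (scaled read count, each axis starting at 0) of the 10 genes in each TKO, WT, Dox and CTL library; marker shape gives the replicate number and the black line the mean of 3. Lmf2 in TKO (68 to 78.8) lies wholly below WT (96 to 111), and Angptl4 in Dox (35.1 to 55.7) wholly above CTL (21 to 28.5).

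Loss of miR-26 was followed by a change past the threshold in both LMF genes and in none of the other 8. In the limma fit over 12649 genes, with Benjamini-Hochberg adjustment and a threshold of 0.05, Lmf1 rose and Lmf2 fell in TKO. The background in this comparison was high, since 45.8% of the genes in the fit were called, 23.2% being higher in TKO and 22.7% lower. The 2 of 10 called here are thus fewer than the share over all genes. The groups did not overlap for 2 of the 10, again Lmf1 and Lmf2, against 58.8% of all genes tested. The median log2 fold change of the 10 was 0.05 and that of all genes tested was -0.00, with 5 of the 10 above 0.

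In a fit paired by replicate number, doxycycline was followed by opposite changes of Lpl and its inhibitor. The planned unpaired fit made no call. The labels state no pairing. It was taken from these data, where same-numbered Dox and CTL libraries deviated together (r = 0.863, 0.584 and 0.736, over genes). The fit with the replicate number as a block called Angptl4 higher and Lpl and Apod lower, 3 of the 10. The block leaves few libraries for each gene's own spread, so p-values of this fit rest largely on the variance pooled over genes. In this paired fit 2.1% of 12634 genes passed, 0.562% higher and 1.54% lower. Without the block limma called 0 of the 12634 genes (0%) and 0 of the 10. The unpaired limma fit held 748 genes at an unadjusted p under 0.05. At an adjusted p under 0.05, edgeR's quasi-likelihood test called 0 genes and DESeq2 called 99 (0.784%), among them Angptl4 and Apod. The Dox and CTL values did not overlap for Angptl4 and Apod, 2 of the 10, against 12.2% of all genes tested. The median log2 fold change of the 10 was 0.03, beside 0.01 for all genes tested.

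**Figure D2:**
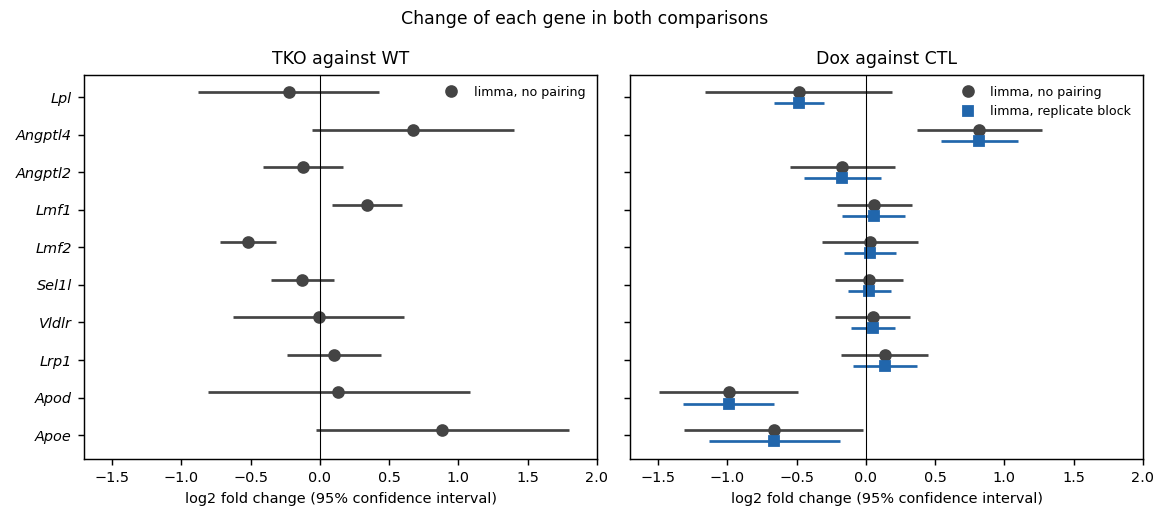
Log2 fold change of signal + 1 with its 95% confidence interval from limma for the 10 genes, in TKO against WT on the left and Dox against CTL on the right; blue squares add the fit paired by replicate number. Intervals clear of 0 in the left panel belong to Lmf1 (0.34) and Lmf2 (-0.52), and the blue intervals clear of 0 on the right to Lpl, Angptl4, Apod and Apoe, of which Apoe did not pass after adjustment.

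Lpl itself (chr8:68880491-68907448, plus strand) carries the 7mer-A1 match shown above. Its signal was 921, 1678 and 854 in TKO and 1275, 1075 and 1533 in WT. TKO replicate 2 was the highest of the 6 and the other 2 TKO libraries the lowest, so the groups overlapped. By limma Lpl differed by -0.22 ± 0.27 on the log2 scale (TKO minus WT, with SE), with an adjusted p of 0.535 and a 95% interval of -0.88 to 0.43. With the trend of transcript length and GC content removed over all 6 libraries, the value was -0.06 (limma adjusted p = 0.889). It also depended on TKO replicate 2. Without that library the log2 fold change was -0.53 and the adjusted p 0.0335 by limma, a call of lower Lpl. That library also held the macrophage sum of 353, with Lyz2, the macrophage lysozyme, at 181 beside 34.1 and 30.5 in the other 2 TKO libraries. Their part in the Lpl value was not tested.

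In the doxycycline comparison Lpl was 989, 1060 and 586 in Dox and 1422, 1367 and 867 in CTL. Replicate 3 was the lowest in both groups, and within each pair Dox was below CTL. The paired log2 differences were -0.52, -0.37 and -0.56, lower in 3 of 3 pairs. Lpl thus stood at a log2 fold change of -0.48 with an SE of 0.28 and an adjusted p of 0.908 in the unpaired limma fit, and with an SE of 0.08, an interval of -0.66 to -0.30 and an adjusted p of 0.0238 with the replicate block. Leaving out pair 1 gave -0.46 with an adjusted p of 0.209, while leaving out pair 2 or pair 3 gave adjusted p of 4.4e-06 and 0.00678 by limma. Fits with a pair left out estimate each gene's spread from so few libraries that their p-values rest mostly on the variance pooled over genes. Such p-values are no firmer than those of the fit on all pairs. The paired fit on all pairs also leaves few libraries for each gene's own spread, so its p-values rest largely on that pooled variance too. The adipocyte marker sums of these libraries were lower in Dox in pair 1 (33.6 in Dox, 37.9 in CTL) and pair 3 (38.9 in Dox, 62.5 in CTL) and higher in Dox in pair 2 (40.8 in Dox, 38.8 in CTL). Fabp4 made up most of each sum, at 39.6 in Dox and 37.2 in CTL in pair 2. Adipoq (0.151, 0.152 and 3.22 in Dox, 0.527, 0.234 and 6.51 in CTL), Plin1 and Cfd were lower in Dox in every pair. Adrb3 was lower in pair 3 alone. Apart from Fabp4, the markers were below a signal of 1 in pairs 1 and 2. The part of these markers in the Lpl values was not tested. In the authors' deposited table the log2 fold change of Lpl was -0.47 with a false discovery rate of 1.

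The inhibitor Angptl4 (chr17:33773750-33781830, minus strand) is a secreted angiopoietin-like protein and a well-known target of the peroxisome proliferator-activated receptors (PPARs). Its signal was 55.7, 35.1 and 46.4 in Dox and 28.5, 26.2 and 21 in CTL. Every Dox library was above every CTL library. The paired log2 differences were 0.94, 0.41 and 1.11, higher in 3 of 3 pairs. Both limma fits gave a log2 fold change of 0.82, with an SE of 0.19 and an adjusted p of 0.506 unpaired, and an SE of 0.13, an interval of 0.54 to 1.1 and an adjusted p of 0.0207 with the replicate block. The paired value lay between 0.68 and 1.02 when each pair was left out, with adjusted p from 7.8e-09 to 0.00581. These p-values carry the limit given above for fits with a pair left out. DESeq2 on the recovered reads gave 0.85 with an adjusted p of 0.0186, unpaired. The authors' deposited table gave 0.86 with a false discovery rate of 0.165.

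In TKO, Angptl4 was 38.8, 38.9 and 18.3, against 15.9, 17.1 and 23.7 in WT. Replicates 1 and 2 of TKO stood above all WT libraries and replicate 3 lay among them. With a log2 fold change of 0.67 ± 0.31, Angptl4 did not pass in limma (adjusted p = 0.116; interval -0.06 to 1.4). It passed in 3 of 18 alternative fits. By limma it passed without TKO replicate 3 (1.02, adjusted p = 0.00754) and with the block and without replicate 3 (1.19, adjusted p = 0.0138). It also passed in DESeq2 (0.76, adjusted p = 0.0276) but not in edgeR (0.77, adjusted p = 0.0825). The authors' deposited table gave 0.76 with a false discovery rate of 0.165. The 2 high libraries were also the 2 with adipocyte sums of 132 and 136, against 30.6 in TKO replicate 3 and 29.2 to 34.6 in WT. The adipocyte signal's part in the Angptl4 values was not tested.

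**Figure D3:**
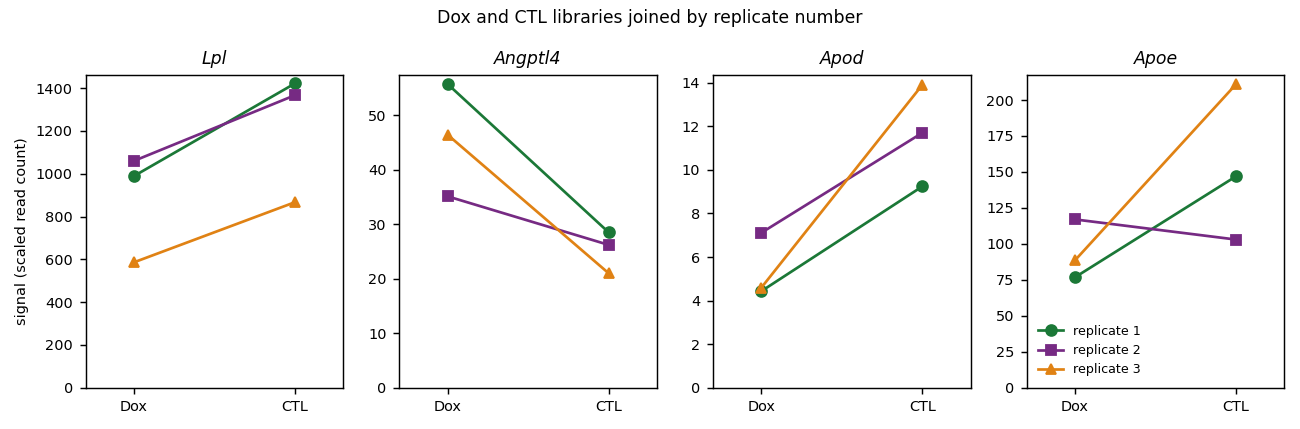
Signal (scaled read count, axes starting at 0) of Lpl, Angptl4, Apod and Apoe in Dox and CTL libraries, with lines joining the libraries of 1 replicate number. Lpl and Apod are lower in Dox in all 3 pairs, Angptl4 is higher in Dox in all 3, and Apoe is lower in 2 and higher in replicate 2 (117 in Dox, 103 in CTL).

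The level of the inhibitor relative to the lipase can be read within each library, where the scaling cancels. Per 1000 units of Lpl signal per kb, Angptl4 signal per kb was 52.4, 28.8 and 26.6 in TKO and 15.5, 19.8 and 19.2 in WT. The same ratio was 70, 41.2 and 98.6 in Dox and 24.9, 23.8 and 30.2 in CTL. All TKO libraries lay above all WT libraries, and all Dox libraries above all CTL libraries. Among single genes tested, the groups did not overlap for 58.8% in TKO against WT and for 12.2% in Dox against CTL. The ratio was computed after the separate values were known and is given as a description, with no test. It was higher both in TKO and in Dox, though in TKO neither Lpl (adjusted p = 0.535) nor Angptl4 (adjusted p = 0.116) passed in limma.

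**Figure D4:**
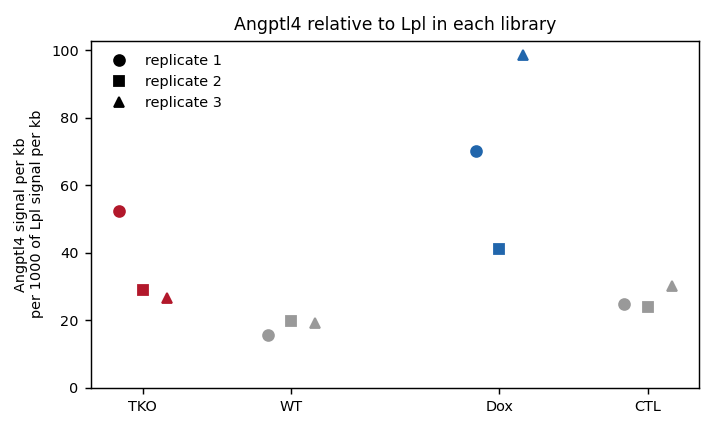
Angptl4 signal per kb per 1000 units of Lpl signal per kb in each library, on an axis starting at 0; shapes give the replicate number. TKO libraries (26.6 to 52.4) lie above WT (15.5 to 19.8), and Dox libraries (41.2 to 98.6) above CTL (23.8 to 30.2).

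Angptl2 (chr2:33216069-33247717, plus strand), a secreted relative of Angptl4 known for its release from adipose tissue, overlapped between the groups in both comparisons. It ranged from 174 to 229 in TKO, 200 to 236 in WT, 200 to 243 in Dox and 203 to 307 in CTL. Neither change passed: Angptl2 was at -0.12 ± 0.12 on the log2 scale in TKO (limma adjusted p = 0.451; interval -0.41 to 0.17) and -0.17 ± 0.16 in Dox (adjusted p = 0.969, and 0.526 with the replicate block). In Dox the paired value depended on the pairs used. It was -0.39 without pair 2 (limma adjusted p = 0.00037, with the limit given above for fits with a pair left out) and -0.01 without pair 3.

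Lmf2 (chr15:89351004-89355659, minus strand) had the smallest adjusted p of the 10 in TKO against WT. LMF2 is a paralogue of LMF1 and is grouped here with the maturation factors, but LPL maturation was not measured. Its signal was 68, 78.8 and 70.5 in TKO and 96, 111 and 107 in WT. The highest TKO library was below the lowest WT library. Lmf2 fell by 0.52 on the log2 scale in TKO (SE 0.08, limma adjusted p = 0.00334; interval -0.72 to -0.32). It passed the threshold in 17 of 18 alternative fits, with values from -0.68 to -0.40, and missed it only in the fit with a replicate block and without replicate 1 (-0.54, adjusted p = 0.0618). The authors' deposited table gave -0.53 with a false discovery rate of 0.000383. Dox libraries held 87.3, 118 and 82.1 and CTL libraries 90.9, 100 and 86.5, with a log2 fold change of 0.03 ± 0.15 (limma adjusted p = 0.999; interval -0.32 to 0.38).

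Lmf1 (chr17:25579085-25662826, plus strand) encodes the ER membrane protein needed for active LPL dimers. It was 24.2, 28.6 and 22.5 in TKO and 18.5, 19.2 and 20.9 in WT, with no overlap and a gap smaller than the range within TKO. Lmf1 rose by 0.34 on the log2 scale in TKO (SE 0.10, limma adjusted p = 0.0357; interval 0.09 to 0.59). The call was lost with median centring (0.29, adjusted p = 0.0518) and with the trend of transcript length and GC content removed (0.09, adjusted p = 0.252). It was also lost without TKO replicate 1 (adjusted p = 0.0556), TKO replicate 2 (0.24, adjusted p = 0.0624), WT replicate 1 (adjusted p = 0.115), WT replicate 2 (adjusted p = 0.111) and WT replicate 3 (adjusted p = 0.0535), all by limma. The authors' deposited table gave 0.36 with a false discovery rate of 0.118. In Dox it was 31.1, 30.4 and 25.8 and in CTL 30, 25 and 28.8, with a log2 fold change of 0.06 ± 0.11 (limma adjusted p = 0.999; interval -0.21 to 0.33).

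Sel1l (chr12:91806043-91849157, minus strand) encodes the adaptor of the HRD1 ubiquitin ligase, and in mouse adipocytes LPL needs it to leave the ER. It carries the 8mer and the 7mer-A1 shown above, and no other of the 10 holds an 8mer. Its signal was 277, 218 and 256 in TKO, against 276, 267 and 274 in WT. The groups overlapped, and the log2 fold change was -0.13 ± 0.09 in TKO (limma adjusted p = 0.314; interval -0.35 to 0.10). Dox libraries held 274, 238 and 264 and CTL libraries 272, 226 and 267, nearly equal within each pair. Dox minus CTL came to 0.02 ± 0.10 on the log2 scale (limma adjusted p = 0.999; interval -0.22 to 0.27). The TKO interval holds no rise above 0.10 and the Dox interval no fall beyond 0.22 on the log2 scale. Removing the trend of length and GC content turned the TKO value to 0.08.

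Of the receptors, Vldlr (chr19:27216484-27254231, plus strand) binds triglyceride-rich particles together with LPL, and its UTR holds the 7mer-m8 match. It was 71, 135 and 112 in TKO and 82.9, 102 and 129 in WT. The TKO values enclosed the WT values. Vldlr differed by -0.01 ± 0.26 on the log2 scale (limma adjusted p = 0.988; interval -0.63 to 0.61), and its sign turned in several alternatives. Vldlr ranged from 89 to 106 in Dox and from 82 to 102 in CTL (0.05 ± 0.11, limma adjusted p = 0.999; interval -0.22 to 0.32).

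Lrp1 (chr10:127538161-127621148, minus strand) encodes a large endocytic receptor for APOE-bearing remnants and many other ligands. It was 3486, 2485 and 3152 in TKO and 2778, 2903 and 2753 in WT, with TKO replicate 2 the lowest of the 6. Lrp1 differed by 0.10 ± 0.14 on the log2 scale (limma adjusted p = 0.594; interval -0.24 to 0.44). In Dox it ranged from 3602 to 4084 and in CTL from 3234 to 3661 (0.14 ± 0.13, limma adjusted p = 0.97; interval -0.18 to 0.45). For the 3 genes with matches of at least 7 bases, Lpl, Sel1l and Vldlr, none was called higher in TKO over all 6 libraries, and in Dox only Lpl was called lower, in the paired fit. Of all genes tested, 23.2% were called higher in TKO by limma and 1.54% lower in the paired Dox fit. Counts over 3 genes cannot be told apart from those shares.

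Apod (chr16:31296192-31314808, minus strand) encodes a lipocalin that carries small lipids. Its mean per kb was the lowest of the 10 in WT, where its values overlapped with those of Angptl4. Its signal was 4.43, 7.11 and 4.59 in Dox (88, 187 and 114 reads) and 9.24, 11.7 and 13.9 in CTL (228, 251 and 294 reads). Every Dox library was below every CTL library. The paired log2 differences were -0.92, -0.65 and -1.41, lower in 3 of 3 pairs. For Apod the log2 fold change was -0.99 with an SE of 0.21 and an adjusted p of 0.44 in the unpaired limma fit, and with an SE of 0.15, an interval of -1.32 to -0.66 and an adjusted p of 0.0186 with the replicate block. Unpaired, DESeq2 gave -1.12 with an adjusted p of 0.0115, whereas edgeR gave -1.12 with an adjusted p of 0.444. The authors' deposited table gave -1.11 with a false discovery rate of 0.286. Leaving out each pair kept the paired value between -1.16 and -0.78, with adjusted p from 2.3e-06 to 0.00107, under the same limit on p-values as for Lpl and Angptl4. In TKO Apod spread widely, at 20.3, 11.3 and 5.96, against 12.4, 7.63 and 10.9 in WT (0.13 ± 0.40, limma adjusted p = 0.804; interval -0.81 to 1.08), and without TKO replicate 1 the value was -0.27.

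Apoe (chr7:19696109-19699188, minus strand) encodes the ligand through which remnants bind LDL-receptor family members, and macrophages make much of it. It was 191, 430 and 159 in TKO and 117, 104 and 170 in WT. TKO replicate 2 was far above the rest, and TKO replicate 3 lay within the WT range. Apoe, at a log2 fold change of 0.88 ± 0.38, did not pass in limma (adjusted p = 0.101; interval -0.03 to 1.80), and without TKO replicate 2 it was 0.45 (adjusted p = 0.132). That library held the macrophage sum of 353 against 46.2 to 80.7 in WT. Over the macrophage list, 12 of 13 markers tested were above 0 in TKO, with a median log2 fold change of 0.62 and 0 called by limma. The macrophage sums of TKO replicates 1 and 3, at 68.2 and 60.9, lay within the WT range. The part of macrophage RNA in the Apoe value was not tested.

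In the doxycycline comparison Apoe was 76.8, 117 and 88.6 in Dox and 147, 103 and 211 in CTL. Dox was lower in pairs 1 and 3 and higher in pair 2, with paired log2 differences of -0.92, 0.18 and -1.24. The log2 fold change was -0.66, with an adjusted p of 0.825 unpaired and 0.144 with the replicate block (SE 0.21, interval -1.13 to -0.19, limma). The paired value depended on which pairs were used. It was -1.08 with an adjusted p of 2.2e-10 without pair 2 and -0.37 with an adjusted p of 0.0154 without pair 3, both calls, whereas leaving out pair 1 gave -0.53 with an adjusted p of 0.122. As for Lpl, p-values with a pair left out are no firmer than that of the fit on all pairs. In the same libraries the macrophage sums were 187, 101 and 35.5 in Dox and 215, 98 and 46.1 in CTL, and their part in the Apoe values was not tested.

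**Figure D5:**
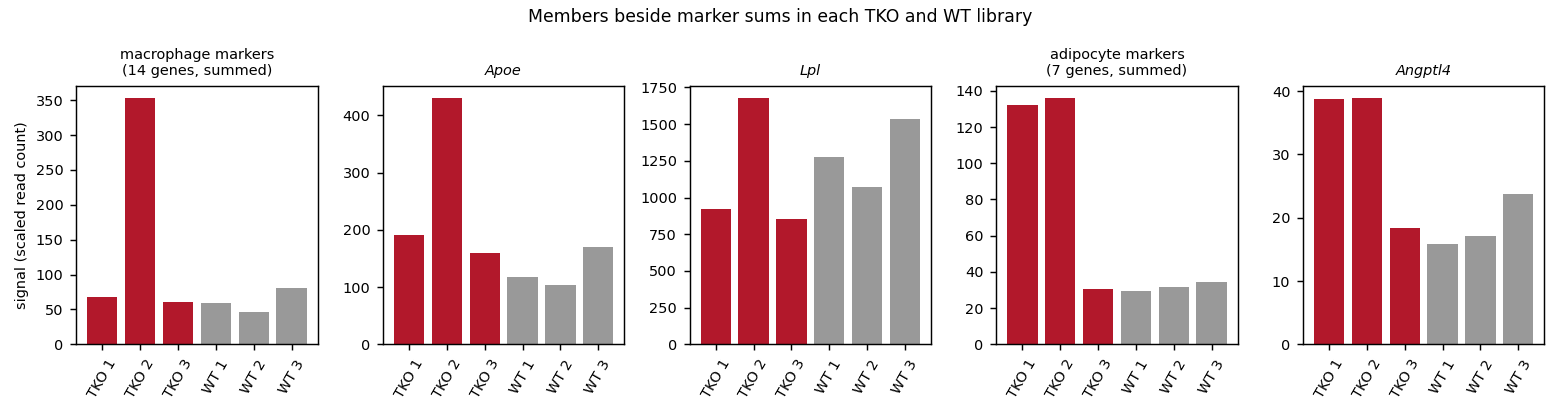
Summed signal of macrophage and adipocyte markers beside the signal of Apoe, Lpl and Angptl4 in each TKO and WT library (scaled read count, bars from 0). TKO replicate 2 has the highest macrophage sum (353), Apoe (430) and Lpl (1678), and TKO replicates 1 and 2 have the highest adipocyte sums (132 and 136) and Angptl4 (38.8 and 38.9).

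Other genes of the pathway were read from 9 lists, in TKO against WT by the limma fit without a block unless stated. Over all the lists 101 genes were tested, of which 24 rose and 18 fell. The share called was 41.6%, near the 45.8% of all genes (23.2% higher and 22.7% lower). No list was tested on its own against these shares, so the list counts that follow only describe these genes. Of genes that carry, cut or bind LPL, 5 of 11 tested rose, 0 fell and 6 did not pass, and the median was 0.37. Among them were heparan sulfate carriers of the cell surface. Gpc1 rose by 0.83 ± 0.08 (adjusted p = 0.00051), with 133, 138 and 118 in TKO and 71.6, 70.7 and 75.5 in WT, and Sdc1 rose by 0.83 ± 0.09 (adjusted p = 0.00074). Pcsk7, a proprotein convertase, rose by 0.48 ± 0.06 (adjusted p = 0.00135). Of the ANGPTL family outside the members, 1 of 4 tested rose, Angptl6 (0.75 ± 0.21, adjusted p = 0.0259), though it missed the threshold, at 0.38 with an adjusted p of 0.0995, after correction for transcript length and GC content.

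Among partners of SEL1L in ER quality control, 5 of 16 tested rose, 6 fell and 5 did not pass. Vcp, the ATPase that extracts proteins from the ER, rose by 0.89 ± 0.06 (adjusted p = 0.00027), at 419, 390 and 393 in TKO and 221, 210 and 218 in WT. Erlec1, a lectin of the same route, fell by 0.63 on the log2 scale (SE 0.10, adjusted p = 0.00367), and Derl2, a channel component, rose by 0.26 ± 0.06 (adjusted p = 0.00963). The median log2 fold change of the list was -0.03.

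Of the LDL receptor family and its regulators 0 of 13 tested rose, 2 fell and 11 did not pass. Mylip, the ubiquitin ligase that targets LDL receptor family members for degradation, fell by 0.83 on the log2 scale (SE 0.08, adjusted p = 0.00049), at 30.5, 27.5 and 29.5 in TKO and 49.3, 52.9 and 56.2 in WT. Lrp8, a reelin and APOE receptor, fell by 0.52 (SE 0.17, adjusted p = 0.0481), and with library-size scaling it did not pass (-0.40, adjusted p = 0.107). Of apolipoprotein and lipid transfer genes 3 of 10 tested rose, 1 fell and 6 did not pass. The cholesterol exporters Abca1 and Abcg1 went opposite ways: Abca1 fell by 0.45 (SE 0.11, adjusted p = 0.0149) and Abcg1 rose by 0.96 ± 0.27 (adjusted p = 0.0249). The same correction put Abca1 at -0.16 (adjusted p = 0.3). Pltp, the phospholipid transfer protein, rose by 0.65 ± 0.19 (adjusted p = 0.0306).

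Of genes that take up and activate fatty acids, the step after lipolysis, 5 of 13 tested rose, 2 fell and 6 did not pass. Fabp3, a cytosolic fatty acid carrier, fell by 1.38 on the log2 scale (SE 0.10, adjusted p = 0.00031), at 7.94, 8.42 and 9.66 in TKO and 25.5, 25.4 and 21.5 in WT. Acsl3, an acyl-CoA synthetase, fell by 0.73 (SE 0.08, adjusted p = 0.00096), while the transporter Slc27a4 rose by 0.39 ± 0.06 (adjusted p = 0.00353). Of PPAR target genes 4 of 12 tested rose, 2 fell and 6 did not pass. The beta-oxidation enzymes Acaa2 (0.66 ± 0.08, adjusted p = 0.00116) and Acadvl (0.77 ± 0.11, adjusted p = 0.00236) rose, and Acadl fell by 0.47 (SE 0.07, adjusted p = 0.00263).

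Transcription factors reported to act on Lpl or Angptl4 gave 1 rise, 5 falls and 8 that did not pass of 14 tested. Srebf1, the lipogenic factor, rose by 0.71 ± 0.14 (adjusted p = 0.0074). Hif1a, the hypoxia-inducible factor, fell by 0.49 (SE 0.10, adjusted p = 0.00765), and Nfyc, an NF-Y subunit, fell by 0.26 (SE 0.06, adjusted p = 0.0168). Nfyc did not pass with library-size scaling (adjusted p = 0.192). None of 8 tested lipases and lipolysis genes passed. Leaving out 1 library lost the call of 7 genes named here. These were Angptl6 (TKO replicate 2 or 3, WT replicate 1 or 2; adjusted p up to 0.0735), Derl2 (WT replicate 2; 0.0513), Lrp8 (any but TKO replicate 3; up to 0.146) and Abca1 (WT replicate 1 or 3; up to 0.0595). The others were Abcg1 (TKO replicate 1, WT replicate 1 or 2; up to 0.085), Pltp (any but TKO replicate 3 and WT replicate 3; up to 0.104) and Nfyc (WT replicate 2 or 3; up to 0.0768).

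In Dox against CTL none of the genes in these lists passed without the block, and 2 of 101 tested passed with it, 1.98% beside 2.1% of all genes. Lipa, the lysosomal acid lipase that digests lipoprotein lipids after uptake, was 61.9, 62.9 and 49.6 in Dox and 121, 113 and 115 in CTL. All Dox libraries lay below all CTL libraries, with a log2 fold change of -1.0 ± 0.09 (limma with replicate block, adjusted p = 0.00364; adjusted p = 0.265 without the block). Acsl3 was 43.5, 45.2 and 52.2 in Dox and 64.8, 69.4 and 67.8 in CTL (-0.51 ± 0.08, adjusted p = 0.022 with the block and 0.427 without it), and its paired call was lost without pair 1 (adjusted p = 0.0964). Acsl3 was thus called lower both in TKO and, in the paired fit, in Dox.

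Patterns over the 12 libraries were compared by the root-mean-square (RMS) difference between log2 deviations from each table's own mean, among 9933 genes. The genes most like Lpl were Serping1 (0.16), Fxyd1 (0.17), C1ra (0.19), Mitf (0.20) and Scara3 (0.21), where the median gene stood at 0.45 and Lpl's own RMS deviation was 0.40. Those most like Angptl4 were Rasl11b (0.30), Slc16a1 (0.31), Clec11a (0.33), Mrpl57 (0.33) and B3gnt9 (0.33), where the median gene stood at 0.53 and Angptl4's own RMS deviation was 0.49. The closest genes to Lpl thus followed it more tightly than any followed Angptl4.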

How the data were processed

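Per the labels' protocols, total RNA was made into stranded mRNA libraries and read as 75-base single reads. Per the submitters' processing notes, TopHat2 2.0.12, featureCounts 1.4.6, edgeR 3.8.6 and StringTie 1.2.2 were used with GRCm38 (mm10), and the strand setting of the counting is not given in the sources used here. The signal deposited by the authors is a read count per gene scaled by library, and the deposited tables also hold the authors' log2 fold changes, log2 mean levels, a likelihood ratio score, p-values and false discovery rates, printed only where named. The score was not used.

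Every library's values were whole multiples of 1 step (100% within 0.1 reads), which gave recovered reads. As planned for scaled values, limma 3.58.1 with a trend was fitted to log2(signal + 1), in R 4.3.3, over genes that reached a signal of 1 in 3 or more of the 6 libraries, all 10 members among them. Fold changes are on that scale, which understates those of low genes. Benjamini-Hochberg adjustment ran over every gene in the fit, and adjusted p under 0.05 was called. edgeR 4.0.16 and DESeq2 1.42.0 on recovered reads were alternatives, beside other scalings, filters and pseudocounts, removal of the trend with length and GC content, a replicate block, and leaving out libraries.

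Same-numbered Dox and CTL libraries deviated together (r = 0.863, 0.584 and 0.736, over genes), so the block was taken as a pairing there, though the labels state none. The columns of Dox replicates 2 and 3 carry the same sequencing suffix, so their identity rests on the replicate number. Members, lists and the rule for named genes (the 10 members, up to 3 called genes with the smallest p per list, and the 5 genes most like Lpl and Angptl4) were chosen with earlier results of these data known. Of listed genes 99.8% and 99.9% were found in GENCODE vM21. Shared 50-base stretches made up 1.69% of the Lpl transcript, 0.296% of Apod and 0 of the others. Angptl2 and Lrp1 overlap genes on the other strand, with 0 shared exonic bases.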

Additional observations from a re-analysis of the deposited data

How the results depend on the processing

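In TKO against WT the 5796 calls became 3938 to 5723 when 1 library was left out, 5101 with the replicate block, and 1117, 3654 and 4468 with the block and without number 1, 2 or 3. The numbers did not pair these libraries (r = 0.449, -0.135 and -0.293). Of the 10 members 1 was called with median centring, with the length and GC trend removed, with the block, and with both of these together (in each case Lmf1 was lost, with the block at 0.34 and an adjusted p of 0.0665), 1 to 3 with 1 library left out, and 0 to 5 with the block and 1 number left out. Library-size scaling moved the median of all genes by 0.11 and called 3824 of 5737 genes higher. In Dox against CTL the 0 calls became 99 with DESeq2, 265 with the block, 856 with the block and the length and GC trend removed, and 134, 1534 and 591 with the block and without pair 1, 2 or 3. The members called became 2, 3 and 3, and 2, 5 and 4 without a pair. Counts from fits without a pair carry the limit on p-values given for Lpl.

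Signs turned in TKO for Angptl2 with library-size scaling (0.00), for Vldlr with library-size scaling (0.12), edgeR (0.04), DESeq2 (0.02), the length and GC trend removed (0.31, also with the block), and for Sel1l with that trend removed (0.08, also with the block). Leaving out 1 library gave values of both signs for Vldlr (-0.20 to 0.26), Lrp1 (-0.01 to 0.24) and Apod (-0.27 to 0.54). With the block and 1 number left out, Angptl2 (0.04), Vldlr (0.09 to 0.10), Lrp1 (-0.01), Apod (-0.13 to -0.05) and Lpl (0.09) turned. In Dox, leaving out 1 library gave ranges of -0.06 to 0.08 for Sel1l, -0.03 to 0.12 for Vldlr, -0.13 to 0.13 for Lmf2 and -0.02 to 0.14 for Lmf1, and leaving out pair 2 in the paired fit turned Sel1l (-0.00), Lmf2 (-0.07) and Lmf1 (-0.05). None of these values had passed the threshold, and the cause was not tested.

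Of the members' values under these alternatives, 141 in TKO and 151 in Dox kept their direction and their side of the threshold. In TKO 20 turned sign, 12 lost a call and 7 gained one, and in Dox 10 turned sign and 19 gained a call. Depth limits little here beyond Apod, which rested on 88 to 294 reads in Dox and CTL. The precision of the rest is set by 3 libraries a group.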
